A study of Homo sapiens with 4 samples.

Results

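The sulfhydryl oxidases QSOX1 and ERO1B and the selenoproteins SELENOF, SELENOM and SELENOH are 5 genes that handle disulfides or carry selenium. They were chosen by gene symbol after their response in the contrast described here was known, so their changes are given as a description, without a test. Each of the 5 has 1 probe set with a gene name, and all 5 lie among the 11883 genes tested out of 14884 named. Total RNA of SH-SY5Y cells, a human neuroblastoma line, was hybridised to 4 arrays (Affymetrix Human Gene 2.0 ST). Both cultures called mock received the solvent methanol for 24 h, and both origamicin cultures received that compound, which per the submitters inhibits protein disulfide isomerase (PDI), at 30 µM for 24 h. There were 2 arrays per group, labelled as biological replicates. Whether they came from separate passages is not said, and the spread behind the p-values, which is that between these arrays, may be technical.

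Disulfide bonds of secreted proteins are made in the endoplasmic reticulum (ER). PDI enzymes pass disulfides to folding proteins, and ERO1 flavoenzymes reoxidise PDI by handing the electrons to oxygen, which yields hydrogen peroxide. QSOX1 joins a PDI-like thioredoxin domain and an oxidase domain in a single protein and works mainly in the Golgi and outside the cell. Selenoproteins carry selenocysteine, an amino acid inserted at a UGA codon with the help of an RNA hairpin called the SECIS element, and many are thiol-disulfide enzymes. SELENOF and SELENOM are related ER proteins with a thioredoxin-like fold. SELENOF binds UGGT, the enzyme that senses misfolded glycoproteins. SELENOH is a nuclear selenoprotein with a thioredoxin-like fold.

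The upstream sequences of the 3 members with the largest changes are shown with the motifs found in them: QSOX1 and SELENOH hold the same motif and ERO1B a different one. They are the 250 bases before the RefSeq gene start (GRCh38.p14), read 5′ to 3′ on the gene's strand. Capitals mark an E-box, CACGTG, in QSOX1 and SELENOH. In ERO1B they mark the outer bases of an ER stress response element (ERSE), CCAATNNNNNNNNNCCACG, which lies on the opposite strand and so reads CGTGG, 9 bases, ATTGG. The QSOX1 stretch is chr1:180154619-180154868 (plus strand), that of ERO1B chr1:236281959-236282208 (minus strand) and that of SELENOH chr11:57741241-57741490 (plus strand).
QSOX1: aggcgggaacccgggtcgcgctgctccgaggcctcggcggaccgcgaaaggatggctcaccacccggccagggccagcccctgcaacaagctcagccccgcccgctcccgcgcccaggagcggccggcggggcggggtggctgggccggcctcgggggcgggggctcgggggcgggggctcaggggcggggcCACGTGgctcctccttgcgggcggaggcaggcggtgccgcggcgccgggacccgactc
ERO1B: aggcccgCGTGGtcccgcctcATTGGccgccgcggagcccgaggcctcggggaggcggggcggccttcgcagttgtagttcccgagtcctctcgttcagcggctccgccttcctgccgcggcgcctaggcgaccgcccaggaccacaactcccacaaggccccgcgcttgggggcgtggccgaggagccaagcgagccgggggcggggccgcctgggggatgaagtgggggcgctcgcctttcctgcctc
SELENOH: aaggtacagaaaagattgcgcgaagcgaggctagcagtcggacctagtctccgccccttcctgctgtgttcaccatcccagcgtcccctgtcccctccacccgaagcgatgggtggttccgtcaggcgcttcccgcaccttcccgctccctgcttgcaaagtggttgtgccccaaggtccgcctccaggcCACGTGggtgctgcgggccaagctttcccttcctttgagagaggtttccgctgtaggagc

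Windows of this kind were found for 4 of the 5 members, and none matched SELENOM. Motifs were searched on both strands in all 35116 windows of 250 bases. The ERSE, which the unfolded protein response factors ATF6 and NF-Y are known to bind, occurred in 26 windows (0.0740%), and ERO1B was the member that held it, starting 243 bases before the gene start. The CCAAT box occurs within the ERSE, and the match in ERO1B is its sole CCAAT. The E-box, known to bind MYC and related factors, occurred in 6.34% of windows, in QSOX1 58 bases and in SELENOH 60 bases before the start. The antioxidant response core TGACNNNGC (10.9% of windows) and the XBP1 element TGACGTGG (0.612%) had no match in the 4 members with a window. A match describes letters and shows no binding.

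Both oxidases were higher with origamicin and the 3 selenoproteins were lower. SELENOH showed the largest difference of the 5, at 1.82-fold lower. QSOX1 was 1.22-fold and ERO1B 1.14-fold higher, and SELENOM and SELENOF were 1.14-fold and 1.09-fold lower. Groups did not overlap for any of the 5, as for 48.6% of all genes tested, and nothing is read from this because the members were chosen on this contrast.

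**Figure D1:**
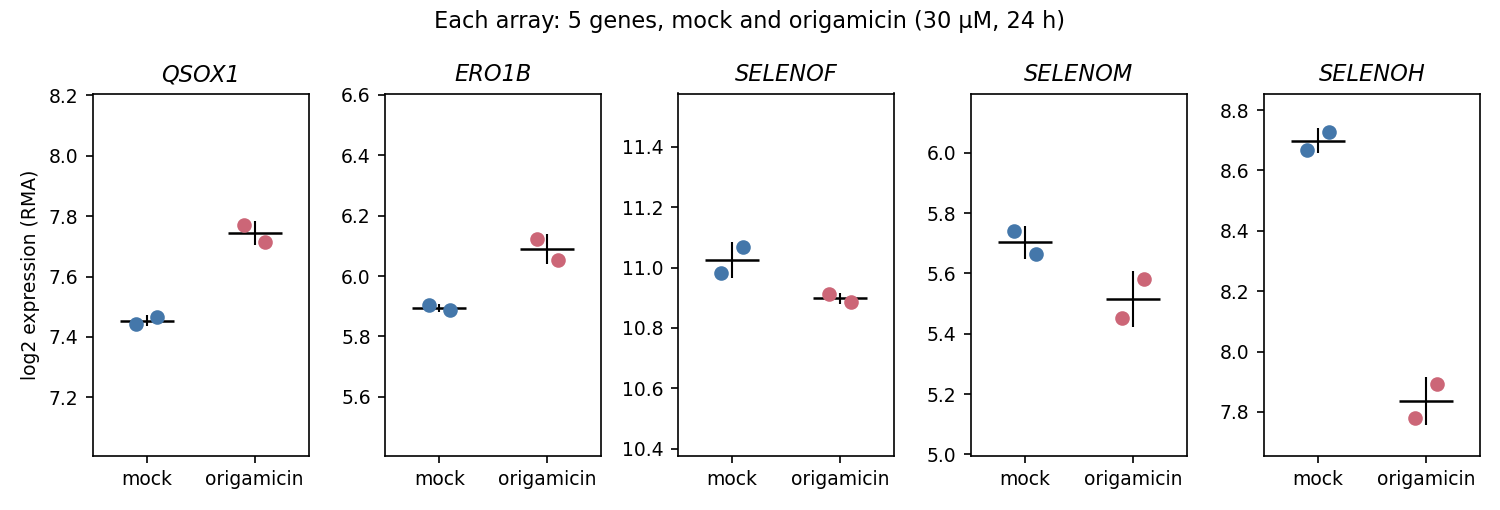
The panels plot log2 expression (RMA) for QSOX1, ERO1B, SELENOF, SELENOM and SELENOH, with a point for each array (blue mock, red origamicin), a horizontal line for the group mean and a vertical line for 1 SD (n = 2). Every axis spans the same log2 range, so the SELENOH difference of -0.86 can be set against the smaller differences of the other genes.

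QSOX1 read 7.44 and 7.47 on the log2 scale in the mock arrays and 7.77 and 7.72 in the origamicin arrays. Both treated arrays were above both mock arrays, and the nearest pair was 0.25 apart, against 0.03 and 0.06 between arrays of a group. The mean difference on the log2 scale was 0.29 ± 0.06 (moderated SE, n = 2 per group). By absolute size this was rank 1324 of the 11883 genes.

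ERO1B, the ERO1 paralogue known for its role in secretory cells and its induction by ER stress, read 5.90 and 5.89 in mock and 6.12 and 6.05 with origamicin. The treated arrays were again the higher pair, with 0.15 between the nearest arrays and at most 0.07 within a group. The mean log2 difference was 0.19 ± 0.07 (moderated SE), rank 2932 by size. ERO1B lies at a dim level, where arrays vary more, and a variance model that follows intensity gave it a wider SE of 0.10.

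The other ER oxidases were 1 higher and 3 lower. Of the 7 others listed, 4 were tested, 1 was too dim (GPX8) and VKORC1 and VKORC1L1 were without a named probe set and not analysed here. None of the 4 passed an adjusted p of 0.05 in the limma fit, in which no gene of the whole table passed (0%). None of the 4 had an unadjusted p under 0.05 either, as 1950 genes or 16.4% of the table did, 7.99% higher and 8.42% lower. None passed in the limma fit with an intensity trend in the variance, which called 4.30% of all genes (2.14% higher, 2.16% lower).

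QSOX2, the paralogue of QSOX1, had a log2 difference of 0.03 ± 0.06 (SE), with 8.52 and 8.49 in mock and 8.54 and 8.52 with origamicin. ERO1A, the broadly expressed paralogue of ERO1B and a known hypoxia target, had a difference of -0.06 ± 0.07. Its origamicin arrays, at 8.89 and 8.77, overlapped the mock arrays at 8.88 and 8.91, and the difference was 0.00068 without origamicin replicate 2. The ER peroxidases PRDX4 and GPX7, which use the peroxide made by ERO1, stood at -0.12 ± 0.08 and -0.14 ± 0.08. With each array left out in turn they ran from -0.19 to -0.05 (nearest 0 without origamicin replicate 1) and from -0.18 to -0.09 (nearest 0 without origamicin replicate 2). The paralogue differences were not tested against those of QSOX1 and ERO1B.

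The PDI family includes the enzymes that ERO1 reoxidises, but not every gene tested here is one of them. Of its 8 tested genes 7 were lower, where 52.1% of all genes were lower and 47.8% higher. Among those 7, TMX3 (-0.01 ± 0.09, SE) and ERP29 (-0.05 ± 0.10) had overlapping groups. None of the 8 had an unadjusted p under 0.05 in the limma fit (all genes 16.4%). Of the 21 listed, 3 were too dim and 10, among them P4HB and PDIA3, were without a named probe set and not analysed here. The membrane-bound TXNDC15 (-0.16 ± 0.07, SE), TXNDC11 (-0.16 ± 0.08) and TMX4 (-0.14 ± 0.07) had the smallest p on the lower side. TXNDC11 was -0.07 without origamicin replicate 1 and -0.25 without origamicin replicate 2, and TMX4 was -0.09 without origamicin replicate 1. ERP44, which retains ERO1 in the early secretory pathway, was the 1 gene above 0, at 0.04 ± 0.08, and its sign turned without mock replicate 1 or origamicin replicate 2 (-0.00055 and -0.03). The median log2 difference over the 8 genes was -0.09, against -0.01 over all genes tested.

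**Figure D2:**
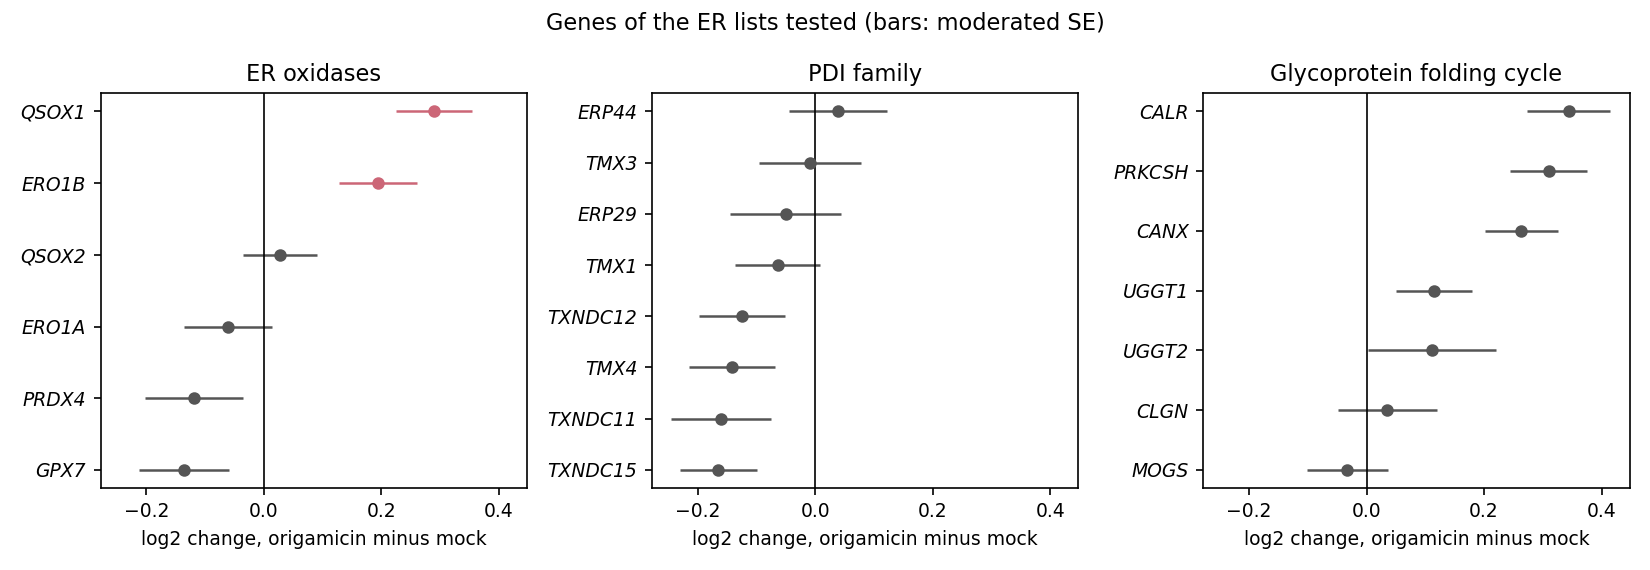
Each point is the log2 difference, origamicin minus mock, of a tested gene in the ER oxidase, PDI family and glycoprotein folding lists, with its moderated SE as a bar (n = 2 per group), and red marks QSOX1 and ERO1B. QSOX1 is at 0.29 and ERO1B at 0.19, both chosen on this contrast, the other oxidases run from -0.14 to 0.03, and CALR, PRKCSH and CANX lead the folding list at 0.34, 0.31 and 0.26.

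SELENOF read 10.98 and 11.07 in mock and 10.91 and 10.89 with origamicin. The treated arrays were the lower pair, but the nearest arrays of the 2 groups were 0.07 apart, less than the 0.08 between both mock arrays. The mean log2 difference was -0.13 ± 0.07 (moderated SE), rank 5009 by size, so this gene lies in the middle of the table.

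SELENOM read 5.74 and 5.66 in mock and 5.45 and 5.58 with origamicin. Here too the gap between groups (0.08 at its smallest) was less than that within one of them (0.13 between both origamicin arrays). The mean log2 difference was -0.19 ± 0.08 (moderated SE), and it was -0.12 without origamicin replicate 1. With the variance following intensity, the SE of this gene, also of lower signal, was 0.11. For SELENOF and SELENOM, then, the nearest arrays of different groups were closer together than the arrays of 1 group.

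SELENOH read 8.67 and 8.73 in mock and 7.78 and 7.89 with origamicin. Both treated arrays lay far below both mock arrays, with 0.78 between the nearest pair and at most 0.11 within a group. The mean log2 difference was -0.86 ± 0.07 (moderated SE), rank 29 by size among the 11883 genes. It ran from -0.81 to -0.92 when each array was left out in turn.

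Over the rest of the selenoprotein family the response was mixed. The human list has 25 genes, of which 22 are not described above. Of these 15 were tested, GPX2 was too dim, and DIO1, DIO2, DIO3, SELENON, SELENOP and SELENOW were without a named probe set and not analysed here. In the limma fit 5 of the 15 (33.3%) had an unadjusted p under 0.05, 3 higher and 2 lower, where 16.4% of all genes did. The count was 3 without mock replicate 2 or without origamicin replicate 1. With an intensity trend 1 passed on each side (13.3%, all genes 4.30%). The median log2 difference of the 15 was -0.02, against -0.01 over all genes.

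TXNRD1, the cytosolic thioredoxin reductase and a target of NRF2, rose by 0.74 ± 0.06 (SE) on the log2 scale in the fit with an intensity trend (limma adjusted p = 0.0019, and 0.095 without the trend). It read 7.54 and 7.56 in mock and 8.30 and 8.29 with origamicin, a difference nearly as large as that of SELENOH and of opposite sign. GPX1, the cytosolic glutathione peroxidase, was the gene that fell (-0.42 ± 0.07, limma adjusted p = 0.024 with the trend and 0.16 without). It read 7.31 and 7.37 in mock and 6.94 and 6.89 with origamicin. Over the 14 alternatives the limma adjusted p ran from 0.0019 to 0.46 for TXNRD1 and from 0.024 to 0.46 for GPX1.

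TXNRD3, a thioredoxin reductase with an added glutaredoxin domain, stood at -0.40 ± 0.09 and the testis-enriched SELENOV at -0.30 ± 0.15 (SE). SELENOV rested on 1 array, with -0.10 without origamicin replicate 1 and -0.50 without origamicin replicate 2. The secreted peroxidase GPX3 stood at 0.44 ± 0.13, with both mock arrays 0.34 apart and 0.27 without mock replicate 2. SELENOK, an ER membrane protein linked to ER-associated degradation, read 5.76 and 5.80 in mock and 6.08 and 5.94 with origamicin (0.24 ± 0.08). Its SE was 0.10 with the intensity trend. None of these 4 passed with an intensity trend.

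Among the selenoproteins of the ER, SELENOF and SELENOM were lower while SELENOK was higher, and SELENOS and SELENOT stood at 0.09 ± 0.07 and -0.01 ± 0.06 (SE). SELENOS is, like SELENOK, a membrane protein of the degradation machinery, and SELENOT is a small ER oxidoreductase. Of these 3 others only SELENOK had an unadjusted p under 0.05 in the limma fit (33.3%, all genes 16.4%). The count was 0 with the intensity trend and with a replicate block, where 2340 and 1718 of all genes had such a p.

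**Figure D3:**
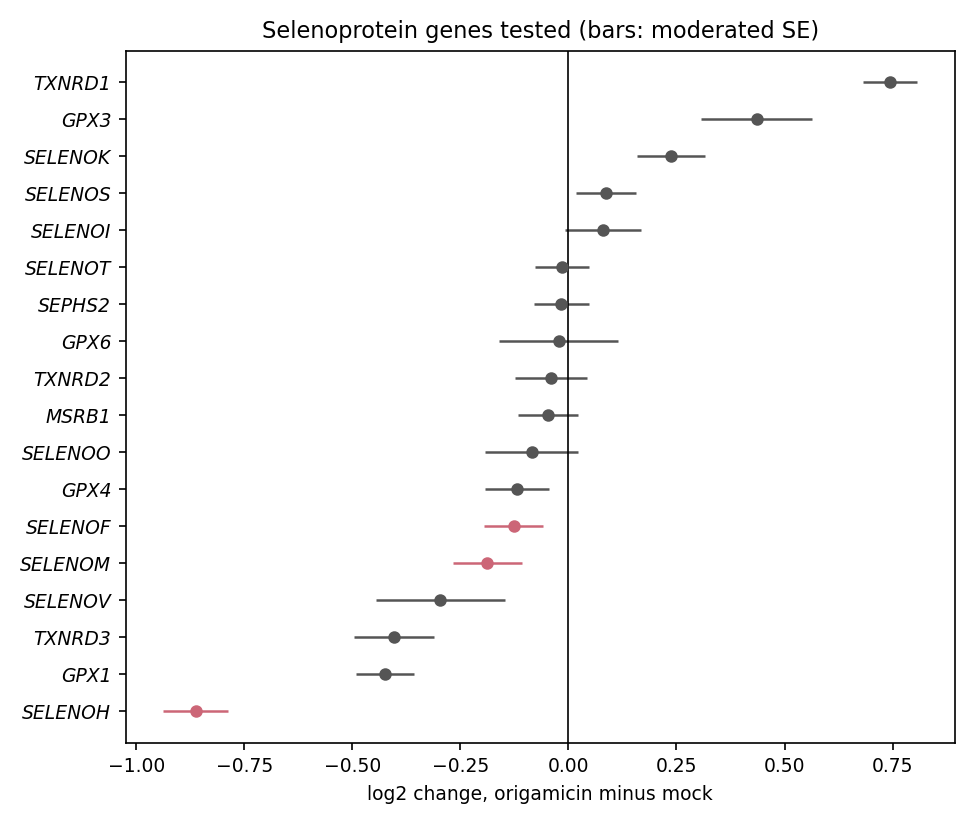
Points show the log2 difference, origamicin minus mock, of the 18 tested selenoprotein genes in order of size, with moderated SE bars (n = 2 per group) and SELENOF, SELENOM and SELENOH in red. SELENOH at -0.86 and TXNRD1 at 0.74 are the ends of the range, and SELENOF and SELENOM sit near genes such as GPX4 at -0.12.

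The machinery that makes and inserts selenocysteine was tested for 13 of 16 listed genes. In the limma fit 1 of the 13 (7.69%, all genes 16.4%) had an unadjusted p under 0.05, and none passed with an intensity trend. That gene was TRNAU1AP, which binds the selenocysteine tRNA, at 0.24 ± 0.07 (SE), and the count was 0 without mock replicate 2 or without origamicin replicate 1. SECISBP2L, a relative of the SECIS-binding protein, stood at 0.18 ± 0.09 and the ribosomal SECIS binder RPL30 at 0.05 ± 0.07. On the lower side SEPSECS, which converts the tRNA-bound amino acid to selenocysteine, stood at -0.23 ± 0.11, SARS1, which charges that tRNA with serine, at -0.12 ± 0.07, and the selenocysteine lyase SCLY at -0.13 ± 0.09. Single arrays moved several of these values: SEPSECS was -0.11 without mock replicate 2 and -0.36 without mock replicate 1. SCLY was -0.05 without origamicin replicate 1, SECISBP2L 0.10 without mock replicate 1 and RPL30 0.0029 without origamicin replicate 2. The list's median was -0.05.

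The tested genes of the glycoprotein folding cycle, in which SELENOF takes part through UGGT, were mostly higher. Of 13 listed genes 7 were tested, and 6, among them GANAB and PDIA3, were without a named probe set and not analysed here. Of the 7 tested, 6 were higher (all genes 47.8%), though CLGN (0.04 ± 0.08, SE) and UGGT2 had overlapping groups. In the limma fit 3 had an unadjusted p under 0.05 (42.9%, all genes 16.4%), and those 3 rose with an intensity trend (42.9%, all genes 4.30%). These were the lectin chaperones CALR (0.34 ± 0.07, SE) and CANX (0.26 ± 0.06) and the glucosidase II subunit PRKCSH (0.31 ± 0.07), with limma adjusted p = 0.015, 0.017 and 0.015 with the trend and 0.18, 0.19 and 0.18 without. Over the 14 alternatives these adjusted p reached 0.46 for CALR, 0.48 for CANX and 0.47 for PRKCSH. The partners of SELENOF stood at 0.11 ± 0.06 (UGGT1) and 0.11 ± 0.11 (UGGT2), and the glucosidase MOGS at -0.03 ± 0.07, the latter 0.0043 without origamicin replicate 2. The median of the 7 was 0.11.

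CALR and CANX also hold the ERSE shown for ERO1B. Windows of 25 genes hold it, and 10 of these genes were tested. Besides ERO1B, 9 tested genes have it in the same window, a set found by sequence after the member values were known. Of these 7 were higher and 2 lower (all genes 47.8% and 52.1%), with a median of 0.20. In the limma fit 5 had an unadjusted p under 0.05 on the higher side and 1 on the lower (all genes 7.99% and 8.42%). With an intensity trend 3 rose (all genes 2.14%). CALR and CANX, already counted in the folding cycle, are among those 3. XBP1, a transcription factor of the unfolded protein response, stood at 0.33 ± 0.07 and CRELD2, a secreted ER stress protein, at 0.30 ± 0.09 (SE). SERP1, a protein of the ER translocon, went the other way at -0.27 ± 0.10. The rest were SYNPO (0.20 ± 0.06), FICD (0.03 ± 0.11), TMEM120A (0.0046 ± 0.08) and ZNF17 (-0.06 ± 0.08). FICD, TMEM120A and ZNF17 had overlapping groups. The E-box set was large, with 973 tested genes, 455 higher and 518 lower, and its median was -0.01, as was that of all tested genes with a window. QSOX1 and SELENOH, which share that motif, differed in opposite directions, but both were chosen on this contrast. A role of the motif was not tested.

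The thioredoxin and glutathione systems, which draw on the same thiol chemistry in cytosol, mitochondria and nucleus, were tested for 16 of 20 genes. In the limma fit 8 of the 16 (all genes 16.4%) had an unadjusted p under 0.05, 7 higher and 1 lower. With an intensity trend 6 rose and 1 fell (43.8%, all genes 4.30%). Besides TXNRD1 they included sulfiredoxin SRXN1 (0.60 ± 0.06, SE, limma adjusted p = 0.0048 with the trend and 0.095 without) and the mitochondrial glutaredoxin GLRX2 (0.49 ± 0.10, 0.034 and 0.18). TXNIP, the inhibitor of thioredoxin, was the gene that fell (-0.60 ± 0.10, 0.012 and 0.16). The limma adjusted p of SRXN1, GLRX2 and TXNIP was lowest with the trend and reached 0.46 among the 14 alternatives. The peroxiredoxins went both ways: PRDX1, among the 6 that rose, stood at 0.20 ± 0.06 and PRDX6 at 0.14 ± 0.07, while PRDX3 and PRDX2 stood at -0.14 ± 0.07 and -0.04 ± 0.06. The list's median was 0.12.

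**Figure D4:**
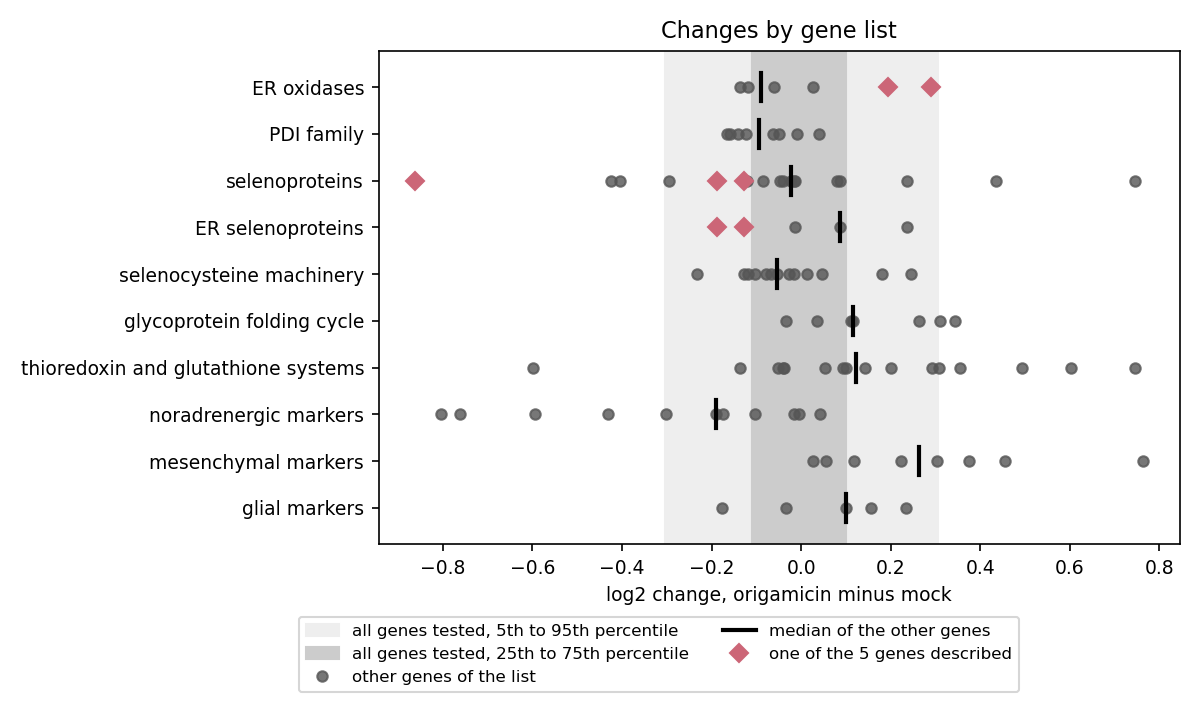
Grey points are the log2 differences, origamicin minus mock, of the tested genes of each list other than the members. Black bars are the medians of these other genes, and red diamonds the members that belong to the list. Grey bands show where all genes tested lie. With the members left out, the ER oxidase and PDI medians are both -0.09. QSOX1 and ERO1B, chosen on this contrast, lie to the right. The folding cycle and the thioredoxin and glutathione systems have medians of 0.11 and 0.12.

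Genes with the most similar pattern over the 4 arrays were found by the root mean square distance between log2 profiles, each centred on its own mean. This distance includes the group difference on which the members were chosen, so a near profile is no separate evidence of a link. CHGA and CHGB, both secretory granule proteins, lay closest to SELENOH at distances of 0.037 and 0.051, with differences of -0.80 ± 0.09 and -0.76 ± 0.08 (SE). CHGA was the 1 gene within 0.05 of SELENOH. The smaller profiles of the other members were common: 272 genes lay within 0.05 of QSOX1, 604 of ERO1B, 487 of SELENOM and 1039 of SELENOF. The nearest were EOGT and INO80D for QSOX1 (distances 0.0071 and 0.0081) and CDIPT and CEMIP2 for ERO1B (0.0074 and 0.0077). For SELENOM they were MIR4442 and C1orf53 (0.0084 and 0.010), and for SELENOF RAB3GAP2 and MAPKAPK3 (0.0039 and 0.0060). INO80D has more than 1 probe set. Its difference was 0.31 ± 0.07 (SE) with the highest, 0.19 ± 0.12 with the mean and 0.07 ± 0.20 with the lowest.

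Some cell type markers differed in the same contrast. Noradrenergic neuroblastoma markers, which define the labelled line, were present, though TH was dim at 5.52 to 5.82 on the log2 scale. Of 11 tested, 10 were below 0 (all genes 52.1%), 7 were lower at an unadjusted p under 0.05 in the limma fit (all genes 8.42%) and 5 fell with an intensity trend (all genes 2.16%). CHGA, CHGB, DDC (-0.59 ± 0.06, SE) and MAB21L1 (-0.43 ± 0.06) had the largest differences, while the lineage factors HAND2 (0.04 ± 0.07) and GATA3 (-0.02 ± 0.06) and the enzyme gene TH (-0.0052 ± 0.12) stood near 0. The list mean was 9.93 and 9.97 in mock and 9.64 and 9.66 with origamicin. Of 11 mesenchymal markers listed 8 were tested, CD44 was too dim, and COL1A1 and COL3A1 were without a named probe set. All 8 were above 0 (all genes 47.8%). In the limma fit 4 were higher at an unadjusted p under 0.05 (all genes 7.99%), and those 4 rose with an intensity trend (all genes 2.14%). These 4 were FOSL1, VIM, FN1 and SNAI2, while THY1 (0.03 ± 0.08), YAP1 (0.06 ± 0.07) and PRRX1 (0.22 ± 0.17) had overlapping groups. PRRX1 and YAP1 were dim, at mock means of 4.28 and 4.29, against a filter of 3.82. The mesenchymal list means were 6.44 and 6.40 in mock and 6.75 and 6.68 with origamicin. Glial markers were dim, at list means of 4.68 and 4.77 in mock and 4.73 and 4.83 with origamicin. None of 5 had an unadjusted p under 0.05 in the limma fit (all genes 16.4%). The part of these shifts in the differences of QSOX1, ERO1B and the selenoproteins was not tested. In bulk RNA, fewer cells of a type and less RNA per cell cannot be told apart.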

How the data were processed

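The authors deposited 1 log2 expression value for every probe set and array. Per the submitters' processing notes, RMA and limma were used (no versions). The genome build is not given in the sources used here. Values lay between 0.574 and 14.5, arrays had medians of 4.37 to 4.42, and no further normalization was applied. The number of arrays limits the precision.

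The platform annotation named 1 gene for 16098 of 53617 probe sets. The probe set with the highest mean stood for each gene, and genes below the 40th percentile (3.82) were left out, which left 11883. Origamicin minus mock was fitted in R 4.3.3 with limma 3.58.1 (lmFit, eBayes, two-sided, Benjamini-Hochberg over all 11883 genes, threshold 0.05), and the fit was tested on simulated data. The members and lists were chosen with earlier results of these data known. Named genes were the members, all tested ER oxidases, up to 3 genes with the smallest p on each side of 5 lists, and 2 nearest profiles per member. Genes named outside the rule were chosen after their values were seen. They are ERP29, TMX3, SELENOS, SELENOT, GPX4, UGGT1, UGGT2, CLGN, PRDX1, PRDX6, the genes with the ERSE and the cell type markers. List counts leave out the members. Upstream sequences come from RefSeq (GRCh38.p14). Alternatives tried were a block for the replicate number, no filter or a 60th percentile filter, equal medians, quantile and cyclic loess normalization, the mean or the lowest probe set, an intensity trend, robust eBayes, and leaving out each array.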

Additional observations from a re-analysis of the deposited data

How the results depend on the processing

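The differences of the 5 members kept their direction under all 14 alternatives run, from 0.26 to 0.32 for QSOX1, 0.16 to 0.23 for ERO1B, -0.17 to -0.08 for SELENOF, -0.25 to -0.12 for SELENOM and -0.92 to -0.81 for SELENOH. The lowest and highest values came from leaving out 1 array. No gene passed limma's adjusted p of 0.05 (1950 at an unadjusted p under 0.05), but 53 passed 0.1, 92 passed 0.05 with the 60th percentile filter and 511 with the intensity trend. Genes at an unadjusted p under 0.05 numbered 1261 to 1669 with each array left out. With the trend, 2340 of all 11883 genes had an unadjusted p under 0.05. Beside this, the list counts were 1 of 4 ER oxidases, 2 of 8 in the PDI family, 0 of 3 ER selenoproteins and 3 of 13 in the machinery. The PDI count was 1 with the 60th percentile filter, where 1944 of the genes kept had an unadjusted p under 0.05. The number kept is not given here, so this count has no share to compare. With each array left out, the counts were 3 to 5 for selenoproteins, 0 to 1 for ER selenoproteins and 0 to 1 for the machinery. Fewer arrays leave fewer residual degrees of freedom, and the cause of the other moves was not tested. Signs turned with an array left out for ERO1A (-0.12 to 0.00068), ERP44 (-0.034 to 0.11) and MOGS (-0.070 to 0.0043). Same-numbered arrays share only a number (correlation of deviations -0.02), and with the replicate block 0 genes passed and the ER selenoprotein count was 0. Lower signal limits ERO1B and SELENOM, whose SE was 0.10 and 0.11 with the trend.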
